A study of Caenorhabditis elegans with 24 samples.

Results

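The heat-shock response (HSR) was measured in *C. elegans* that over-express full-length *hsf-1* in neurons, the strain called *hsf-1FL*. Heat-shocked *hsf-1FL* animals (3 libraries) were compared with untreated *hsf-1FL* animals (3 libraries), so 6 of the 24 libraries of the series carry the comparison. The genes tested were those with at least 10 counts in at least 3 of these 6 libraries, 13009 of the 46934 genes in the deposited table.

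Each library came from whole animals, about 800 of them at day 1 of adulthood, grown at 20 °C on HT115 bacteria with the empty vector pL4440, and poly(A) RNA was sequenced. The heat-shock was 34 °C for 2 h, and recovery was 1 h at 20 °C before collection. The transgene was driven by the pan-neuronal *rab-3* promoter, per the study's methods, on top of the animals' own *hsf-1*. The other genotypes, each with 3 untreated and 3 heat-shocked libraries under the same conditions, were N2 (wild type), *hsf-1CTD* (neuronal *hsf-1* without its C-terminal domain) and the mutant *hsf-1(sy441)*. Because whole animals were used, fewer cells of a type and less RNA per cell cannot be told apart, and the tissue in which a transcript changed was not measured.

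HSF-1 is the transcription factor that drives the HSR. In unstressed cells it is held back by chaperones. Heat unfolds proteins in the cytosol, the chaperones are drawn away, and HSF-1 forms trimers that bind heat-shock elements in front of chaperone genes. The classical targets are small heat-shock proteins, which hold unfolded proteins in a soluble state, and Hsp70 and Hsp90, which refold them with the help of co-chaperones. In *C. elegans*, HSF-1 activity in neurons is known to change stress resistance in other tissues. The ER has its own unfolded protein response (UPR-ER), in which IRE-1 splices *xbp-1* mRNA and the spliced XBP-1 induces ER chaperones such as *hsp-4*.

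The 6 libraries held between 11215696 and 15481255 counts. A level is given as CPM, the counts of a gene scaled to a common library size with the TMM factors of edgeR, which lay between 0.98 and 1.06 in these 6 libraries. A gene was called when its adjusted P-value in the quasi-likelihood test of edgeR was under 0.01, and rises, falls and calls are those of this test, without a block, unless another fit or tool is named. The biological coefficient of variation over all 24 libraries was 38.4%. Nothing in the labels says that replicate numbers pair libraries. The deviations of same-numbered untreated and heat-shocked *hsf-1FL* libraries from their group means correlated at 0.68, 0.28 and 0.31 over genes. Those of differently numbered libraries correlated between −0.52 and 0.22, the highest for untreated replicate 3 with heat-shocked replicate 2. The numbers were taken as pairs, most clearly so for replicate 1. A fit with the replicate number as a block within each genotype is therefore given beside the counts of calls. The labels name the libraries biological replicates, without saying that they were grown or processed on different days.

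The targeted gene was checked first. *hsf-1* was at 146, 144 and 152 CPM in the untreated and at 129, 117 and 160 CPM in the heat-shocked *hsf-1FL* libraries. The 2 groups overlapped, and the log2(fold-change) was −0.12 (SE 0.20, adjusted P-value 0.88). Against untreated N2, *hsf-1* in untreated *hsf-1FL* differed by 0.11 on the log2 scale (adjusted P-value 1.0). The whole-animal counts thus gave no detectable excess of *hsf-1* in the strain labelled as over-expressing it. They do not separate transcripts of the transgene from those of the endogenous gene.

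In the fit without the block, heat-shock raised a small set of genes, cytosolic chaperones among them, and lowered a smaller one. With the block more genes fell than rose. Of the 13009 genes tested, 127 were called (0.976%), of which 79 rose (0.607%) and 48 fell (0.369%). Over all 13009, 6228 had positive and 6781 negative log2(fold-changes), and 2092 had an unadjusted p under 0.05 in edgeR. The rises had a median log2(fold-change) of 2.80, also with genes of few untreated counts set to their bound or count ratio. They began at 0.36, and the highest with more than 3 untreated counts was 9.79, while the falls had a median of −2.09. Together the 79 genes took 0.581%, 0.668% and 0.573% of all counts in the untreated libraries and 2.28%, 2.15% and 1.57% in the heat-shocked libraries. The 48 genes went from between 0.235% and 0.339% of the counts to between 0.0657% and 0.0795%. In all 127, the heat-shocked and the untreated libraries did not overlap, which was also so for 3648 of all genes tested (28%).

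With the replicate block, 552 genes were called (4.24%), 234 up (1.8%) and 318 down (2.44%), and 124 of the 127 were among them. DESeq2 called 488 (3.75%), 266 up (2.04%) and 222 down (1.71%), all 127 among them. The 3 that lost their call with the block were the falling genes *ncx-7*, *sago-1* and F23F12.3, with block adjusted P-values of 0.014, 0.014 and 0.011. The share of calls that were rises was 62.2% without the block and 42.4% with it. The number of calls also depended on single libraries. It was 112 without heat-shocked replicate 3 (88 up and 24 down), and 83 of these were among the 127. Without any one of the other 5 it was between 37 and 66. Heat-shocked replicate 3 was the lowest of the heat-shocked libraries for 56 of the 79 genes that rose (70.9%), against 42.7% of all genes tested. In the other genotypes replicate 3 was the lowest for 46 of the 79 in N2 (58.2% against 37.8%) and 56 in *hsf-1CTD* (70.9% against 39.1%). For *hsf-1(sy441)* it was 37 (46.8% against 41.9%).

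**Figure D1:**
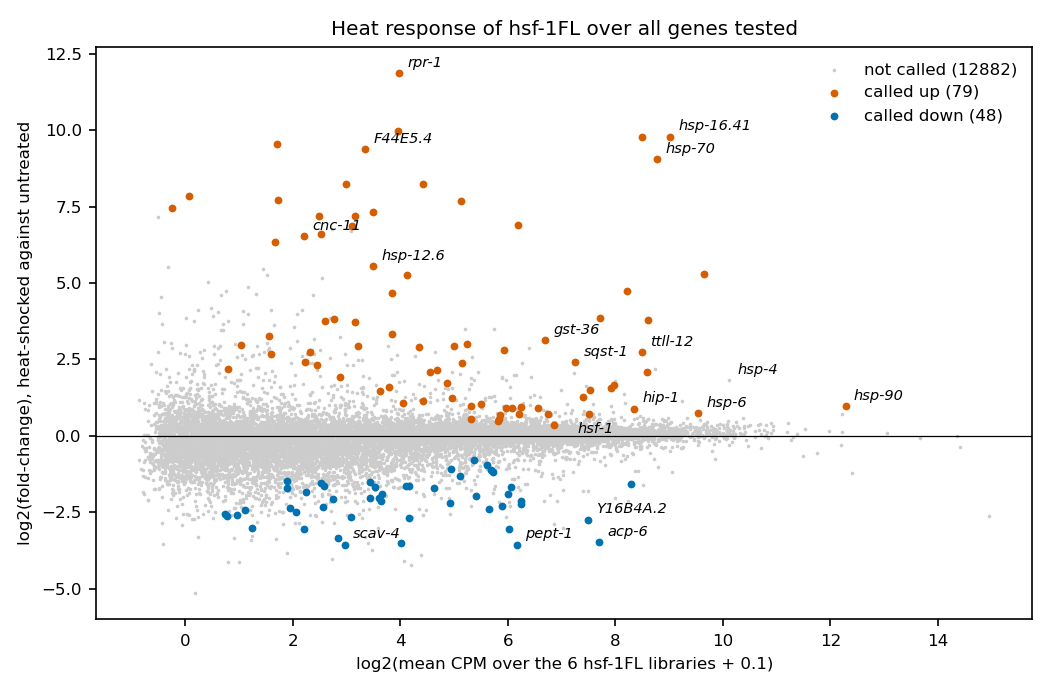
Log2(fold-change) of heat-shocked against untreated *hsf-1FL* for each of the 13009 genes tested, against the log2 of its mean CPM over the 6 libraries plus 0.1. The highest point, at 11.87, is the fitted value of *rpr-1*, which had 0 untreated counts and was at least 477-fold higher. The 48 genes called down reach −3.55, and *hsf-1* lies near 0.

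The small heat-shock genes *hsp-16.2* and *hsp-16.41* had among the highest rises. They encode alpha-crystallin-type chaperones and lie back to back on chromosome V (WBcel235), *hsp-16.2* at 1804334 to 1804957 on the minus strand and *hsp-16.41* at 1805178 to 1805875 on the plus strand, with 220 bases between them. *hsp-16.2* was at 0.977, 0.995 and 0.456 CPM in the untreated and at 887, 813 and 470 CPM in the heat-shocked libraries. *hsp-16.41* was at 1.61, 1.55 and 0.326 CPM in the untreated and at 1338, 1155 and 600.0 CPM in the heat-shocked libraries. For both genes replicate 3 was the lowest of each group, and every heat-shocked library was far above every untreated one. The log2(fold-change) was 9.79 for each (SE 0.62 and 0.67, adjusted P-values 1.04e-08 and 2.2e-08), and both kept their calls without any one library. As a share of all counts, the *hsp-16* genes went from 0.000199% ± 0.000103 (SD, n = 3) to 0.181% ± 0.066 (exact two-sided permutation test, p = 0.1, the smallest that 3 against 3 libraries can give).

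The other *hsp-16* genes, *hsp-16.1* and *hsp-16.48*, have 2 near-identical copies each. All 4 copies held between 0 and 2 counts in every *hsf-1FL* library and were not tested. How reads that match several genes were counted is not given in the sources used here, so the levels of these copies are uncertain and their values say nothing of whether they were induced.

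Of the 8 other small heat-shock genes tested, 1 rose in edgeR, with or without the block, and DESeq2 called *hsp-17* as well. *hsp-12.6* was at 0.419, 0.373 and 0.586 CPM in the untreated and at 30.0, 20.6 and 14.8 CPM in the heat-shocked libraries, which is 5.55 on the log2 scale (adjusted P-value 0.0079, SE 1.09). This call was lost without any one of the 6 libraries (adjusted P-values between 0.0102 and 0.0554). *hsp-17* was at 20.1, 16.04 and 24.3 CPM untreated and at 231, 182 and 28.3 CPM after heat-shock. Its heat-shocked replicate 3 was close to the untreated ones, and it did not pass in edgeR (2.87, SE 0.71, adjusted P-value 0.028, block 0.090). *hsp-12.3* was at a mean of 0.442 CPM untreated and 2.48 CPM after heat-shock and was not called (log2(fold-change) 2.48, adjusted P-value 0.058). *hsp-43*, *hsp-25*, *sip-1*, *hsp-12.2* and *hsp-12.1* had log2(fold-changes) between −0.20 and 0.58 and were not called.

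Among the 5 cytosolic Hsp70 and Hsp110 genes, the 3 heat-inducible ones rose. *hsp-70* (chromosome I, 9320325 to 9322519) was at 1.89, 1.24 and 1.82 CPM in the untreated and at 979, 730 and 910 CPM in the heat-shocked libraries. Its log2(fold-change) was 9.05 (SE 0.53, adjusted P-value 5.17e-09), the smallest adjusted P-value of all genes tested, and heat-shocked replicate 3 was not low for it. The gene overlaps *uggt-2* on the opposite strand, which was at 1.92 CPM untreated and 4.94 CPM after heat-shock on average and was not called.

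F44E5.4 and F44E5.5 are inducible Hsp70 genes that lie head to head on chromosome II with 350 bases between them, and they are close copies of each other, so their reads may be shared or missing. F44E5.4 had 1 count over the 3 untreated and 830 counts over the 3 heat-shocked libraries, at 11.3, 7.36 and 41.9 CPM. The ratio was 937 (95% exact counting interval 168 to 37063, adjusted P-value 0.0033). F44E5.5 had 2 counts untreated and 640 after heat-shock, at 7.24, 7.10 and 32.8 CPM, a ratio of 361 (99.6 to 2990, adjusted P-value 0.0059). These intervals cover counting error only. Unlike the *hsp-16* genes, both were highest in heat-shocked replicate 3, as they were in each of the other genotypes. Leaving out single libraries ended the call of F44E5.4 in 3 of 6 cases, with adjusted P-values up to 0.0327, and that of F44E5.5 in 4 of 6, with adjusted P-values up to 0.0416.

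The other Hsp70 genes are highly expressed without stress. *hsp-110*, a nucleotide exchange factor of Hsp70, was at 644, 720 and 560 CPM untreated and at 1219, 1203 and 1510 CPM after heat-shock. *hsp-1*, the constitutive Hsc70, was at 3643, 3999 and 3117 CPM untreated and at 6042, 6047 and 5495 CPM after heat-shock. The libraries did not overlap for either. The log2(fold-changes) of 1.03 and 0.71 missed the threshold (adjusted P-values 0.0131 and 0.0329) and passed it with the block (0.00094 and 0.0038). As a share of all counts, the 5 genes went from 0.429% ± 0.0576 (SD, n = 3) to 0.831% ± 0.0343 (exact two-sided permutation test, p = 0.1).

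Of the 12 genes for Hsp90 and its co-chaperones, 3 rose, by less than the inducible Hsp70 genes. All 12 had positive log2(fold-changes), with a median of 0.68 against −0.02 for all genes tested. With the block 8 passed, and the same number passed in DESeq2. *hsp-90* was at 3301, 3732 and 3016 CPM untreated and at 7246, 7120 and 5462 CPM after heat-shock (0.98, SE 0.19, adjusted P-value 0.0069). *hip-1*, the Hsp70-interacting co-chaperone, was at 212, 244 and 225 CPM untreated and at 448, 478 and 341 CPM after heat-shock (0.90, SE 0.13, adjusted P-value 0.00067). The myosin chaperone *unc-45* had the smallest rise of the 79, from 97.6, 103 and 103 CPM to 125, 128 and 137 CPM (0.36, SE 0.07, adjusted P-value 0.0096). In each of the 3 genes every heat-shocked library was above every untreated one. Only *hip-1* kept its call without any one library (adjusted P-values up to 0.0094), while those of *hsp-90* reached 0.0449 and those of *unc-45* lay between 0.0225 and 0.0678.

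The genes called with the block but not without it were *bag-1*, *sti-1*, *ahsa-1*, *cdc-37* and *fkb-6*. BAG-1 releases nucleotide from Hsp70, STI-1 links Hsp70 to Hsp90, AHSA-1 stimulates the ATPase of Hsp90 and CDC-37 brings kinases to it. Their log2(fold-changes) were between 0.49 and 1.01, with adjusted P-values between 0.0112 and 0.0481 without and between 0.0026 and 0.0076 with the block. The first of them, *bag-1*, was at 54.1, 57.9 and 57.6 CPM untreated and at 119.1, 134.5 and 88.0 CPM after heat-shock.

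DnaJ proteins hand unfolded proteins to Hsp70. None of the 29 DnaJ genes passed in edgeR without the block, 6 had an unadjusted p under 0.05, DESeq2 called 1 (*dnj-12*), and their median was 0.12. An unadjusted p under 0.05 was found for 2092 of all 13009 genes tested. With the block, *dnj-12* and *dnj-13* passed (0.53 and 0.65, block adjusted P-values 0.0047 and 0.0035). The 8 subunits of the CCT chaperonin, the ring that folds actin and tubulin, all had positive log2(fold-changes) between 0.26 and 0.57 (median 0.39). None was called in edgeR without the block, although 7 had an unadjusted p under 0.05. With the block *cct-5*, *cct-6* and *cct-7* were called, and DESeq2 called *cct-5* and *cct-6*. The regulators of HSF-1, *hsb-1*, *ddl-1* and *ddl-2*, did not pass (−0.18, −0.16 and 0.50).

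**Figure D2:**
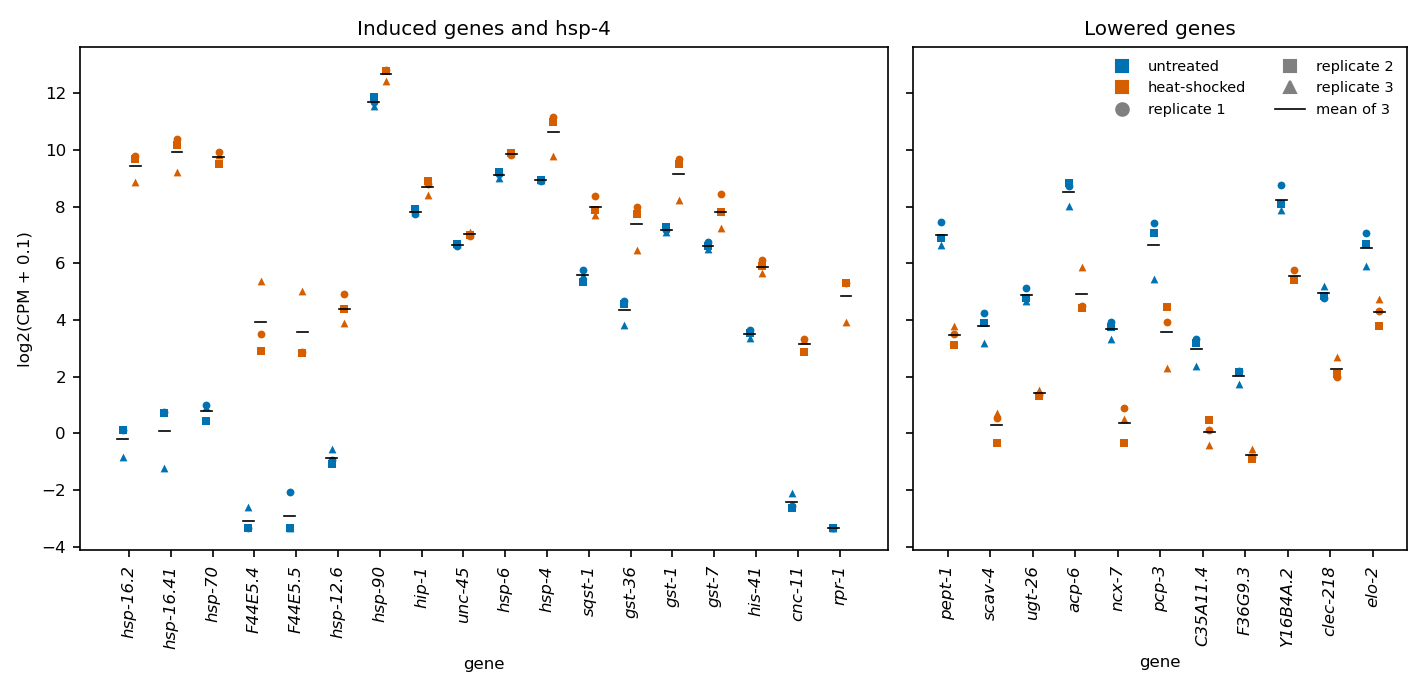
Level of each gene in each of the 6 *hsf-1FL* libraries, as log2(CPM + 0.1), untreated in blue and heat-shocked in orange, with the replicate number as the symbol and the mean of 3 as a bar. For *hsp-16.2* and *hsp-16.41* heat-shocked replicate 3 (triangle) is the lowest at 470 and 600.0 CPM, and for F44E5.4 and F44E5.5 it is the highest at 41.9 and 32.8 CPM.

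The UPR-ER was examined next, since the study asked how heat-shock engages ER chaperones. Of the 16 genes of the UPR-ER list, 0 passed in edgeR without the block, 1 (*hsp-4*) passed with it, and DESeq2 called 3 (*hsp-4*, *pek-1* and *xbp-1*). The median of the list was 0.16, and 6 genes had an unadjusted p under 0.05 in edgeR, against 2092 of all 13009 genes tested. The block fit called 552 and DESeq2 called 488 of all 13009 genes. *hsp-4*, the ER Hsp70 known as BiP, was at 481, 492 and 485 CPM in the untreated and at 2313, 2017 and 875 CPM in the heat-shocked libraries. The untreated libraries were close to each other, and every heat-shocked one was higher, though replicate 3 by less. The log2(fold-change) was 1.84 (SE 0.39, adjusted P-value 0.0124 without and 0.0077 with the block). *pek-1*, the ER kinase that slows translation, went from 56.5, 47.3 and 65.5 CPM to 158, 160 and 92.0 CPM (1.28, adjusted P-value 0.0154, block 0.0159). *xbp-1* went from 171, 157 and 180 CPM to 302, 232 and 206 CPM (0.54, adjusted P-value 0.043, block 0.022).

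The libraries of *pek-1* and *xbp-1* did not overlap either, which was also so for *ire-1*, *atf-6* and 28% of all genes tested. The calls of *pek-1* and *xbp-1* rest on the tool. The sensors *ire-1* (0.17) and *atf-6* (−0.26), the calcium-binding chaperone *crt-1* (0.38), the other BiP gene *hsp-3* (0.12), the Hsp90 of the ER *enpl-1* (0.29) and T14G8.3 (0.07) were called by neither tool. The 6 disulfide isomerase genes had a median of 0.26 and the 13 genes of ER-associated degradation 0.07, with 0 calls in both lists in edgeR, with or without the block, and in DESeq2, and with 0 and 1 genes at an unadjusted p under 0.05. The counts are per gene, so spliced and unspliced *xbp-1* were not separated.

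Of 12 genes of the mitochondrial unfolded protein response, *hsp-6*, the mitochondrial Hsp70, was the 1 that rose, with a median of 0.06 for the list. It was at 562, 590 and 521 CPM untreated and at 908, 951 and 951 CPM after heat-shock (0.75, SE 0.15, adjusted P-value 0.0092, and between 0.0258 and 0.0484 without any one library). Its partner *hsp-60* was at 499, 547 and 369 CPM untreated and at 482, 588 and 567 CPM after heat-shock, with overlapping libraries (0.21, adjusted P-value 0.81). The transcription factor *atfs-1* had a log2(fold-change) of 0.07. The mitochondrial ribosomal proteins had a median of 0.23 over 70 genes, of which *mrpl-45* (0.95) and *mrpl-4* (0.56) rose. Their calls held in 3 and 1 of 6 cases when libraries were left out. With the block 9 of the 70 rose, as many as DESeq2 called.

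*sqst-1*, the p62 receptor that brings ubiquitinated proteins to autophagosomes, rose. It was at 54.7, 40.6 and 48.5 CPM in the untreated and at 328, 234 and 209 CPM in the heat-shocked libraries. The groups did not overlap (log2(fold-change) 2.42, SE 0.40, adjusted P-value 0.0021), and the call held in 2 of 6 cases when libraries were left out (adjusted P-values up to 0.0215). It was the only gene called among 27 of autophagy, whose median was 0.10, and with the block *vps-34*, a lipid kinase of autophagosome formation, passed too (0.44, block adjusted P-value 0.0081). The 33 proteasome subunits had a median of 0.20, and 32 of them had positive values. None was called in edgeR without the block, and 9 had an unadjusted p under 0.05. With the block 4 were called (*rpn-3*, *pas-5*, *pbs-7* and *rpn-9*), and DESeq2 called *rpn-3*. Among all 13009 genes tested, 6228 had positive values, 2092 had an unadjusted p under 0.05 and 552 were called with the block.

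**Figure D3:**
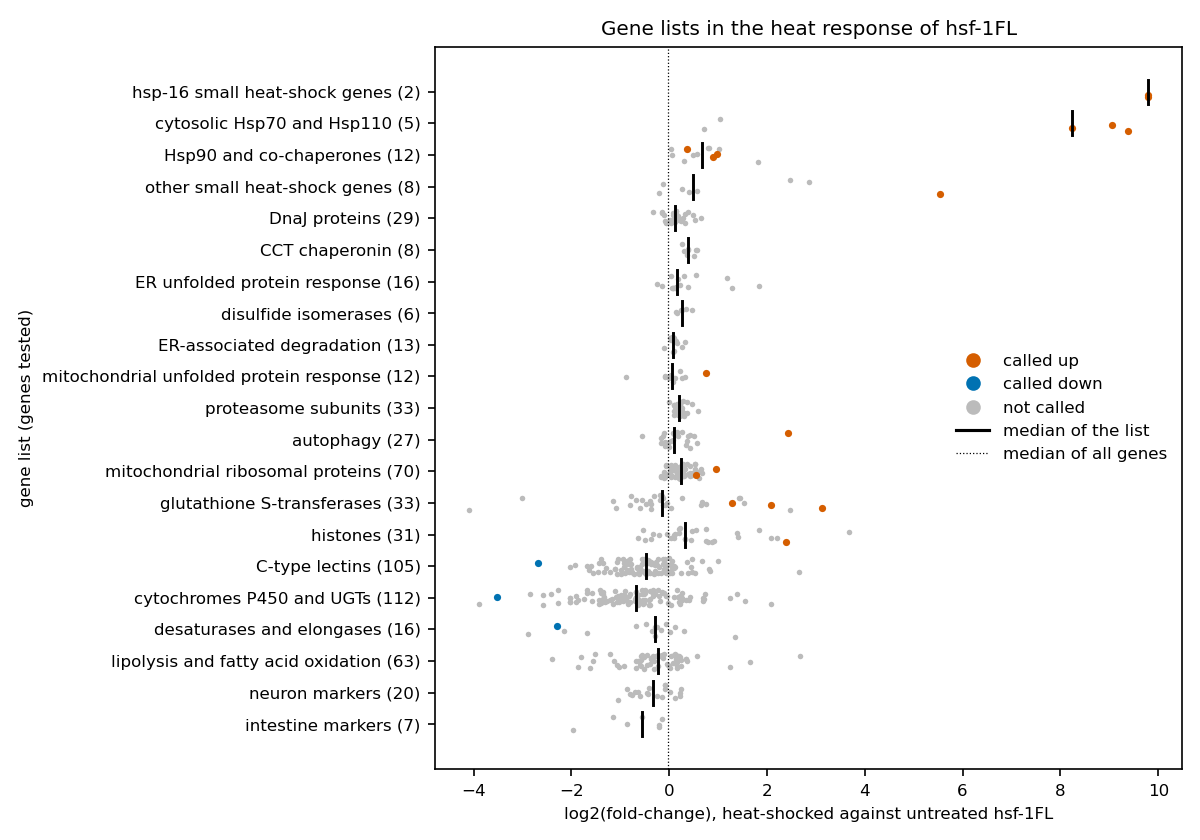
Log2(fold-change) of each tested member of 21 gene lists, heat-shocked against untreated *hsf-1FL*, with genes called up in orange, called down in blue and the median of each list as a black bar. The Hsp70 list (median 8.23, or 8.50 with count ratios for F44E5.4 and F44E5.5) and the *hsp-16* list (9.79) lie far to the right of the dotted median of all genes (−0.02), and the cytochrome P450 and UGT list (−0.67) lies to its left.

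Outside the chaperones, 3 of 33 glutathione S-transferases rose, while the median of the list was −0.14. These enzymes couple glutathione to toxic compounds. DESeq2 called 5 up, these 3 with *gst-20* and *gst-24*, and *gst-42* down. With the block the same 3 rose and *gst-42* and *gst-10* fell (−1.14 and −0.47). *gst-36* was at 25.5, 23.5 and 14.2 CPM untreated and at 251, 215 and 88.7 CPM after heat-shock (3.13, SE 0.38, adjusted P-value 9.12e-05). *gst-1* was at 145, 157 and 137 CPM untreated and at 824, 734 and 301 CPM after heat-shock (2.08, adjusted P-value 0.0023). *gst-7* rose by 1.29 (adjusted P-value 0.0021). All 3 were lowest in heat-shocked replicate 3. *gst-36* kept its call without any one library, whereas *gst-1* and *gst-7* did so in 1 and 2 of 6 cases.

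Several of the largest rises came from RNAs that do not encode proteins or from genes without a named function. *rpr-1* (chromosome I, 13463955 to 13464207), the RNA component of RNase P, had 0 counts in each untreated library and 1267 counts over the heat-shocked ones, at 39.2, 39.7 and 15.2 CPM. Against a floor of 3 counts over the 3 untreated libraries it was at least 477-fold higher (adjusted P-value 5.03e-06). It lies within *ints-8* on the opposite strand, which was at 69.2 CPM untreated and 74.0 CPM after heat-shock and was not called. RNase P RNA is not a typical polyadenylated transcript, and poly(A) RNA was selected here.

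The counts of the mitochondrial ribosomal RNAs rose too, in libraries of selected poly(A) RNA, so the total levels of these RNAs were not measured. WBGene00014454 rose by 5.28, from a mean of 40.0 CPM to 1559 CPM, and WBGene00014472 by 3.84, from 27.4 CPM to 393 CPM (adjusted P-values 1.04e-08 and 1.42e-05). *ND4*, a subunit of complex I encoded on the same mitochondrial genome, fell by 1.57 on the log2 scale, from 470 CPM to 159 CPM (adjusted P-value 0.00066). These 3 genes and *cel-mir-239b*, at 0 untreated and at least 22.2-fold higher after heat-shock, were chosen after their values were seen.

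Called genes also lay next to each other. On chromosome II, Y53F4B.7 had 0 counts untreated and 252 after heat-shock, at least 94.9-fold higher against the floor, and its neighbour Y53F4B.8, annotated as a pseudogene, rose by 7.68 from 0.628, 0.373 and 0 CPM to 78.4, 98.4 and 31.6 CPM. On chromosome V, Y17D7C.2, Y17D7C.3 and Y17D7C.9 rose, all between 18715853 and 18725759. Y17D7C.2 had 3 counts untreated and 440 after heat-shock, a ratio of 166 (95% exact counting interval 56.3 to 806), and Y17D7C.9 had 1 and 255, a ratio of 288 (51.2 to 11417). Also on chromosome V, *dct-10*, Y38H6C.7 and Y38H6C.8 rose together.

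*dct-10*, annotated as a pseudogene, was at 0.209, 0.124 and 0.0651 CPM untreated and at 54.5, 47.2 and 25.1 CPM after heat-shock (8.24, adjusted P-value 5.03e-06). Y38H6C.8 was at 0.140, 0.187 and 0.0651 CPM untreated and at 22.8, 21.5 and 22.6 CPM after heat-shock (7.32, adjusted P-value 4.81e-06). Both kept their calls without any one library. Y53F4B.7 lost it in all 6 cases, with adjusted P-values up to 0.0449. WBGene00022693 on chromosome II had 1 count untreated and 1206 after heat-shock, a ratio of 1362 (244 to 53833), and Y46H3A.5 had 5 and 754 (7.21). For these 2 genes heat-shocked replicate 3 was the lowest (2.42 and 5.86 CPM), and their calls held in 1 of 6 cases when libraries were left out.

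The remaining genes that rose from the fixed lists were *his-41*, a histone gene, and *cnc-11*, a caenacin antimicrobial peptide. *his-41* went from 12.29, 11.6 and 10.2 CPM to 69.7, 59.2 and 49.9 CPM (2.39, SE 0.34, adjusted P-value 0.00057), and was the 1 histone gene called of 31 in edgeR and in DESeq2. With the block *his-1* (3.67) and *his-38* (1.84) were called too. *cnc-11* went from 0.0698, 0.0622 and 0.130 CPM to 9.85, 7.19 and 9.75 CPM (6.54, adjusted P-value 0.00089), and was the 1 gene called in edgeR of 64 lysozyme and antimicrobial peptide genes. With the block *fipr-24* (5.04) and *spp-15* (1.00) were called too, and DESeq2 called these 3 and *irg-2*. The call of *cnc-11* held in 4 of 6 cases when libraries were left out (adjusted P-values up to 0.0141). Of the 12 *pals* genes tested, 0 passed in edgeR or in DESeq2. An unadjusted p under 0.05 was found for 2 of them, against 2092 of all 13009 genes tested. Of the 108 *fbxa* F-box genes, 0 passed in edgeR, 14 had an unadjusted p under 0.05, *fbxa-47* passed with the block (7.18, block adjusted P-value 0.0065), and DESeq2 called 3.

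Of the 48 genes that fell, 16 lie on the X chromosome, where 0.873% of the 1832 genes tested fell, against 0.369% of all genes. The largest fall was that of *pept-1*, the intestinal transporter of di- and tripeptides (X, 6456872 to 6461767), at 177.3, 119.2 and 99.4 CPM in the untreated and at 11.2, 8.66 and 13.8 CPM in the heat-shocked libraries. It fell by 3.55 on the log2 scale (adjusted P-value 0.0069, SE 0.68). *scav-4*, a scavenger receptor of the CD36 family, went from 19.1, 14.6 and 9.12 CPM to 1.37, 0.693 and 1.54 CPM (−3.55, SE 0.50, adjusted P-value 0.0005). *acp-6*, an acid phosphatase, went from 422, 458 and 257 CPM to 22.6, 21.1 and 58.6 CPM (−3.47, adjusted P-value 0.0079). In each of these genes the highest heat-shocked library was well below the lowest untreated one.

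The other large falls were those of the UDP-glucuronosyltransferase *ugt-26* (−3.52), the sodium-calcium exchanger *ncx-7* (−3.34), *pcp-3*, a prolyl carboxypeptidase-like protease (−3.05), C35A11.4 (−3.03), F36G9.3 (−3.02), Y16B4A.2 (−2.74) and the C-type lectin *clec-218* (−2.69). *pcp-3* was at 171, 133 and 44.0 CPM untreated and at 15.1, 22.1 and 4.91 CPM after heat-shock. Y16B4A.2 was at 433, 275 and 233 CPM untreated and at 54.6, 42.4 and 43.7 CPM after heat-shock. Of the 11 named genes that fell, *scav-4*, Y16B4A.2 and *clec-218* kept their calls without any one library. The call of *pept-1* was lost in each of the 6 cases, with adjusted P-values between 0.0121 and 0.0475.

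The lists gave few single calls on the falling side but negative medians. Over all 13009 genes tested, 6781 had negative values and 2092 an unadjusted p under 0.05. The block fit called 318 of them down, and DESeq2 called 222 down. Of 112 cytochrome P450 and UGT genes, which modify lipids and foreign compounds, *ugt-26* alone fell, while 89 had negative values and the median was −0.67. With the block 9 fell, among them *ugt-22* (−2.28) and *ugt-47* (−2.28), and DESeq2 called 8 down and 1 up. Of 105 C-type lectins, *clec-218* alone fell, 83 had negative values and the median was −0.47. With the block 7 fell and 1 rose, and DESeq2 called 3 down. Of 16 desaturases and elongases, the fatty acid elongase *elo-2* fell, from 133, 102 and 60.2 CPM to 19.6, 13.8 and 26.9 CPM (−2.29, SE 0.40, adjusted P-value 0.003), and *elo-5* (−2.16) joined it with the block. DESeq2 called both and *elo-6*, and the call of *elo-2* held in 2 of 6 cases when libraries were left out. Of 63 genes of lipolysis and fatty acid oxidation, 0 were called in edgeR without the block, 13 had an unadjusted p under 0.05, 7 fell with the block, among them *acs-14* (−1.08) and *acox-1.1* (−1.52), and DESeq2 called 4.

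All 7 markers of the intestine had negative log2(fold-changes), with a median of −0.55, and their summed level was 1194, 1011 and 682 CPM in the untreated and 792, 741 and 279 CPM in the heat-shocked libraries. None passed in edgeR without the block or in DESeq2, and 3 had an unadjusted p under 0.05. *act-5*, the actin of the microvilli, passed with the block (−1.15, block adjusted P-value 0.0035). Among all 13009 genes tested, 6781 had negative values and 2092 an unadjusted p under 0.05. The summed levels of the intestine markers overlapped between the groups but were lower after heat-shock in each pair. Pair by pair, with 0.25 CPM added, *pept-1* fell by 3.95, 3.75 and 2.83 on the log2 scale and *scav-4* by 3.58, 3.98 and 2.39, the least in pair 3, where the summed intestine markers were lowest. The part of the markers in these results was not tested. The 20 neuron markers, of which 15 had negative values, had a median of −0.33, with 0 calls in edgeR, with or without the block, and in DESeq2, and 1 gene at an unadjusted p under 0.05. *rab-3*, whose promoter drives the transgene, went from 15.2, 10.2 and 12.4 CPM to between 4.18 and 12 CPM, with overlapping libraries (−0.85, adjusted P-value 0.52). The summed level of sperm genes was 610, 166 and 70.4 CPM untreated and 472, 63.7 and 121 CPM after heat-shock, highest in the first library of both groups.

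The heat response of *hsf-1FL* was then set beside those of the other genotypes, each measured on libraries of its own. All 79 genes that rose in *hsf-1FL* also had positive log2(fold-changes) in N2 and *hsf-1CTD*, and 78 of them in the mutant *hsf-1(sy441)*. Their median was 2.80 in *hsf-1FL*, 2.72 in N2, 2.79 in *hsf-1CTD* and 1.61 in the mutant. N2 called 0.738% of all genes, 0.623% of them up, and 51 of the 79. *hsf-1CTD* called 1.15%, with 0.761% up, and 61 of the 79. The mutant called 2.15%, with 1.52% up, and 37 of the 79. The rise was smaller than in *hsf-1FL* for 43 of the 79 in N2, 45 in *hsf-1CTD* and 63 in the mutant. The 79 genes were chosen by their call in *hsf-1FL*, which by itself favours larger values there. These counts and medians therefore do not show a weaker response in another genotype.

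The 48 genes that fell, also chosen by their call in *hsf-1FL*, had negative values in all 4 genotypes. Their medians were −2.09 in *hsf-1FL*, −1.66 in N2, −1.95 in *hsf-1CTD* and −1.68 in the mutant. Of these, 12 were called in N2 (0.115% of all genes were called down there), 34 in *hsf-1CTD* (0.392%) and 22 in the mutant (0.63%). A call in 1 genotype and none in another does not show a difference, and 11 rises and 11 falls were called in *hsf-1FL* and in none of the others. Among them *hsp-90* rose by 0.98 in *hsf-1FL* and had 0.93 in N2 (adjusted P-value 0.011), *hsp-6* 0.75 and 0.50 (0.098), and *unc-45* 0.36 and 0.35 (0.013).

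**Figure D4:**
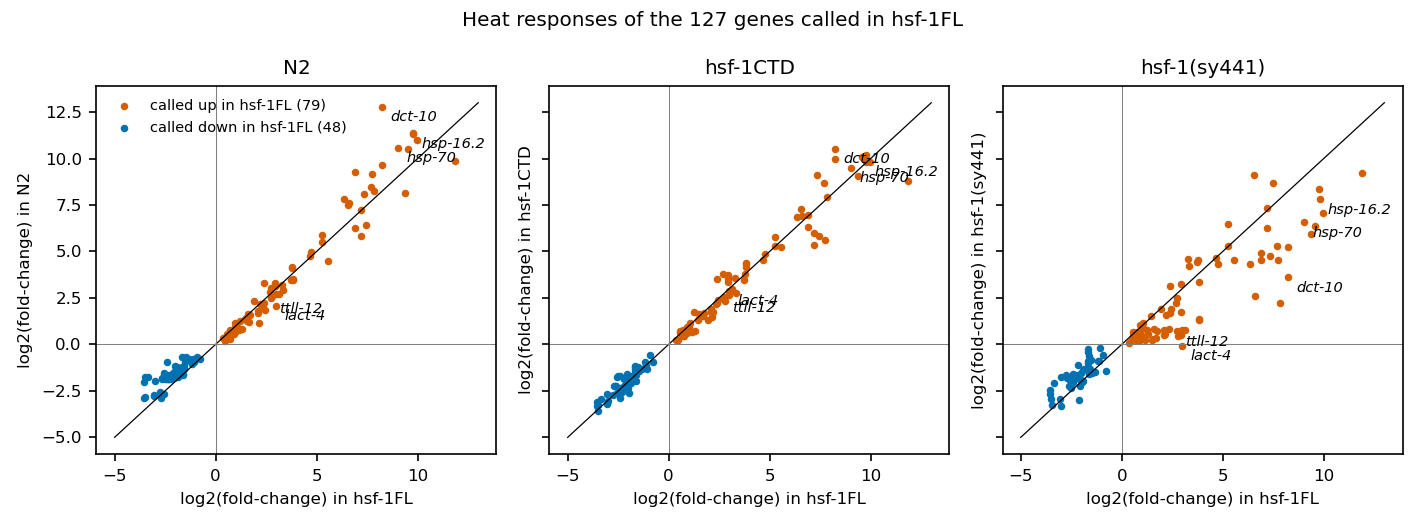
Log2(fold-change) of the 127 genes called in *hsf-1FL* (horizontal axis) against the log2(fold-change) of the same genes in N2, *hsf-1CTD* and the mutant, with genes that rose in orange, genes that fell in blue and the line of equal change. In the mutant 63 of the 79 orange points lie below the line, among them *ttll-12*, *lact-4* and *dct-10*. The genes were chosen by their call in *hsf-1FL*, which favours larger changes on the horizontal axis.

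The difference between heat responses was tested directly as an interaction. Against N2, 0 of 13009 genes were called in edgeR, also with the block, and DESeq2 called 2 (0.0154%), *col-88* and R07C3.13. An unadjusted p under 0.05 was found for 63 genes without and 262 with the block. Against *hsf-1CTD*, 0 genes were called by either tool or with the block, and 44 had an unadjusted p under 0.05 in edgeR (207 with the block). Without any difference, a share of 0.05 of the genes would lie under that value. These counts were below that share, so 0 calls do not show equal heat responses. The induction of *hsp-16.2* was 9.79 in *hsf-1FL* and 11.33 in N2, where it reached 707, 829 and 436 CPM from 0.205, 0.132 and 0.410 CPM. The heat-shocked levels overlapped between the genotypes. The untreated ones were higher in all 3 *hsf-1FL* libraries, by 1.67 on the log2 scale, which did not pass (adjusted P-value 0.91). Over all genes, 5 differed between untreated *hsf-1FL* and untreated N2 (0.0384%) and 4 between the heat-shocked libraries (0.0307%).

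The 3 genes with the smallest P-values against N2 were F14F9.4, *irg-2* and R03E9.2, all with adjusted P-values of 1.0 in the interaction. F14F9.4 was at 24.3, 22.1 and 16.7 CPM in untreated *hsf-1FL*, above the 4.16, 3.37 and 7.59 CPM of untreated N2, and at 5.09, 4.94 and 5.94 CPM in heat-shocked *hsf-1FL*. The log2(fold-changes) of F14F9.4 were −1.98 with the transgene and 0.92 in N2. Neither passed in edgeR (adjusted P-values 0.047 and 0.53), while DESeq2 called the fall with the transgene (0.0062). *irg-2*, an infection response gene, was at 4.47, 6.84 and 5.93 CPM in untreated *hsf-1FL* and at 1.84, 1.25 and 0.888 CPM in untreated N2, and its log2(fold-changes) were 2.10 (adjusted P-value 0.025, DESeq2 0.0010) and 4.52. For both genes the untreated levels of the 2 genotypes did not overlap, and their difference did not pass (adjusted P-values 0.17 and 0.16).

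Against *hsf-1(sy441)*, 0 genes were called in edgeR and 407 had an unadjusted p under 0.05. With the block 3 were called (0.0231%), *lact-4*, *dct-10* and *clec-221*, and DESeq2 called 5 (0.0384%), these 3 with *gst-36* and *ttll-12*. *ttll-12*, a tubulin tyrosine ligase-like gene, was at 90.8, 100.2 and 92.5 CPM in untreated and at 774, 749 and 362 CPM in heat-shocked *hsf-1FL*. In *hsf-1(sy441)* it was at 82.2, 99.6 and 85.4 CPM untreated and at 147, 155 and 134 CPM after heat-shock. The heat-shocked levels of the 2 genotypes did not overlap, and the responses of 2.73 and 0.70 differed by 2.03 (SE 0.36, adjusted P-value 0.24, block 0.16, DESeq2 0.00021). Without heat-shocked replicate 3, *ttll-12* was the 1 gene called in edgeR. Its neighbour *scp-1*, which lies 100 bases upstream on the same strand and encodes the SCAP homologue of sterol sensing, rose by 1.49 in *hsf-1FL* and had 0.21 in *hsf-1(sy441)*.

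*lact-4*, which encodes a protein with a beta-lactamase domain, was at 8.80, 8.95 and 7.23 CPM in untreated and at 95.5, 63.1 and 41.6 CPM in heat-shocked *hsf-1FL*. In heat-shocked *hsf-1(sy441)* it was at 7.90, 6.58 and 13.4 CPM, all within the range of its untreated libraries (4.94 to 13.6 CPM). The responses of 3.00 and −0.08 differed by 3.08 (SE 0.58, adjusted P-value 0.24, block 0.0026). *lact-4* overlaps M05D6.3 on the opposite strand, which had a log2(fold-change) of 3.87 in *hsf-1FL* (adjusted P-value 0.048). *dct-10* had responses of 8.24 and 3.60, a difference of 4.64 (SE 0.97, adjusted P-value 0.52, block 0.0060). *hsp-70* had responses of 9.05 and 6.58, a difference of 2.47 (SE 0.58, adjusted P-value 0.54, block 0.23). It was at 6.992, 6.495 and 10.5 CPM in untreated *hsf-1(sy441)*, above each untreated *hsf-1FL* library. After heat-shock it was at 753, 1083 and 452 CPM in *hsf-1(sy441)*, overlapping the 979, 730 and 910 CPM of *hsf-1FL*.

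**Figure D5:**
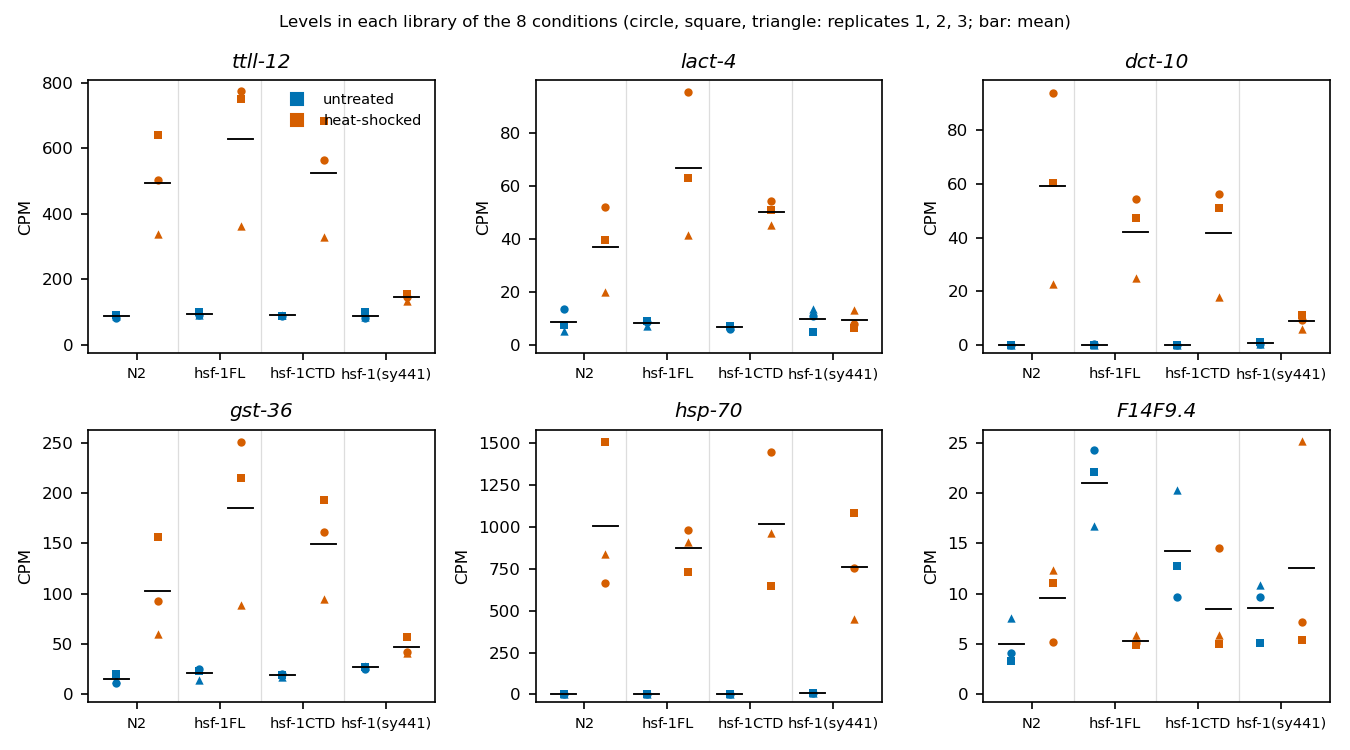
CPM of 6 genes in each of the 24 libraries, untreated in blue and heat-shocked in orange, with a symbol for each replicate and the mean of 3 as a bar. The heat-shocked *hsf-1(sy441)* libraries of *ttll-12* lie between 134 and 155 CPM, below the heat-shocked *hsf-1FL* libraries at 362 to 774 CPM.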

How the data were processed

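The members and gene lists were chosen with earlier results of these data known. The deposited values are raw counts per gene, without normalization, which the authors made by trimming reads with Trim Galore 0.6.7-1, aligning them to WBcel235 with STAR 2.7.10a and counting with featureCounts of Subread 2.0.3 on annotation release 107. Neither a strand setting nor a rule for reads matching several genes is given in the sources used here, so overlapping genes on opposite strands cannot be told apart. Every column was matched to a sample by its name, and 0 were left without one. Biotypes, overlaps and missing symbols came from release 115, in which 46924 genes were found and 46841 had the same position.

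All 24 libraries were fitted together, 1 mean per condition (8), in R 4.3.3 with edgeR 4.0.16, using TMM scaling, quasi-likelihood F-tests and Benjamini-Hochberg adjustment over the 13009 genes. SE is the absolute log2(fold-change) over the root of its F-statistic. The chi-square per degree of freedom between replicates of *hsf-1FL* was between 11.3 and 95.2, so none was a copy of another. Samples were grouped by their genotype and treatment labels. Gene lists were described by counts and medians, with no test of the list. Named genes were *hsf-1*, the 14 called genes with the largest rise and the 10 with the largest fall at a mean level of at least 1 CPM and with no overlap of the groups, the called members of each list (at most 4), genes of the UPR-ER, and the 3 genes with the smallest P-value in each interaction. Genes named beside a list or as calls with the block or in DESeq2, neighbours and overlapping genes were added after their values were seen. Ratios with 1 to 3 untreated counts carry an exact 95% binomial interval.

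Alternatives were DESeq2 1.42.0, surrogate variables from sva 3.50.0 (3 variables), an additive replicate block and a block within each genotype, other scalings, filters and thresholds, only the 6 libraries, and each library left out. The models were tested on simulated data. The sequences of promoters were not used here. Summaries were made with pandas 2.3.3 and scipy 1.17.1 in Python 3.11.15, and figures with matplotlib 3.10.9.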

Additional observations from a re-analysis of the deposited data

How the results depend on the processing

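The number of genes called in heat-shocked against untreated *hsf-1FL*, 127 in edgeR, was 488 with DESeq2, 591 with surrogate variables in edgeR and 1009 with them in DESeq2. It was 69 with at least 10 counts in each of the 6 libraries and 482 at an adjusted P-value under 0.05. A fit of only the 6 libraries gave 84 calls, of which 54 were among the 127. The additive replicate block gave 236 calls, the block within each genotype 552, and a fit of only the 6 libraries with a replicate block, added after the data had been seen, 256. Leaving out 1 library gave between 37 and 112 calls. Other scalings, filters and a log2(fold-change) of at least 1 gave between 109 and 134 calls. All 127 were called by DESeq2 too, and rises were between 38.3% and 80% of the calls over the settings, against 62.2% as reported.

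For the interaction with N2, DESeq2 called 2 genes and the other settings 0. For that with *hsf-1CTD* every setting called 0. For that with *hsf-1(sy441)*, DESeq2 called 5, surrogate variables 3 in edgeR and 19 in DESeq2, the additive block 1 and the block within each genotype 3, and leaving out 1 library gave between 0 and 1. Of the 40 named genes called, 13 kept their call under every setting in which they were tested (17 or 18 a gene), and 21 under every such setting that kept all 6 libraries, and 0 changed sign. T14G8.3, which was not called, had a log2(fold-change) between −0.17 (without heat-shocked replicate 1) and 0.30 with 1 library left out. With 1 library left out, the spread of the rest of the series stands in for the missing one. The cause of these differences was not tested. The share of promoters with a heat-shock element was not run, since no promoter sequences were at hand. With 3 libraries a group, exact tests of a share cannot go under p = 0.1, and genes at 0 to 3 untreated counts have folds known only as bounds or wide intervals.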

Other observations

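Families of genes defined by their names gave further values for *hsf-1FL*. Of the families with at least 10 tested genes, the ABC transporters of the *pgp* family had the lowest median log2(fold-change), −1.07 over 14 genes, of which 13 had negative values and 1, *pgp-5* (−1.65), was called (4 down with the block). The neprilysin-like peptidases of the *nep* family had a median of −0.996 over 18 genes, and the *cest* carboxylesterases −0.69 over 29, each with 0 calls in edgeR without the block. With the block 3 *nep* genes fell, and 2 *cest* genes fell and 1 rose. At the other end, 18 *hsp* genes had a median of 0.86 with 6 called (9 with the block), and 24 *his* genes 0.64 with 1 called (3 with the block). By chromosome, the median was lowest on the mitochondrial genome, −0.52 over 14 genes, of which 11 had negative values. It was −0.20 on X and 0.04 on III, against −0.02 over all genes. Positive values were found for 641 of the 1832 genes on X, against 6228 of all 13009 genes tested.

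Among the genes that fell and belong to no list were membrane proteins of several kinds, named here after their values were seen. The ammonium transporter *rhr-1* fell by 2.12 on the log2 scale, from a mean of 123 CPM to 28.3 CPM, the smallest adjusted P-value of the falls (6.39e-06). The glutamate transporter *glt-1* fell by 1.97, the betaine transporter *snf-3* by 2.03, and the nucleoside transporters *ent-4* and *ent-2* by 2.67 and 1.12.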
